A study of Mus musculus with 12 samples.

Results

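Bone morphogenetic protein (Bmp) signalling was followed through 10 genes in whole mouse embryos carrying the whirligig allele of Chd7. CHD7 is an ATP-dependent remodeller of chromatin, and loss of 1 copy in people causes CHARGE syndrome. The genes were 5 secreted ligands (Bmp2, Bmp4, Bmp5, Bmp6 and Bmp7) and 5 genes that Bmp signalling switches on (Id1, Id2, Id3, Smad6 and Smad7). All array probes other than control spots were taken whose transcript accession belongs to one of these genes in a RefSeq gene table. This gave 11 probes of 39429, of which 2 belonged to Bmp4 and 1 to each other gene. All 10 genes were tested, among 22582 genes or identifiers in all.

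The study asked which genes depend on functional Chd7 while neural crest cells migrate. It compared 4 Chd7Whi/Whi (homozygous), 4 Chd7Whi/+ (heterozygous) and 4 Chd7+/+ (wild-type) female embryos at embryonic day 9.5 on a mixed C3HeB/FeJ background, 1 array each. All came from matings of heterozygotes, so a wild-type embryo had a heterozygous mother, and the embryos had been taken out of their yolk sacs. The labels call the 4 embryos of a genotype biological replicates and do not say which shared a litter.

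Bmps bind pairs of type I and type II kinase receptors at the cell surface. The type I receptor phosphorylates Smad1, Smad5 and Smad9, which enter the nucleus with Smad4 and raise transcription of the Id genes and of the inhibitory Smads, Smad6 and Smad7. Id proteins hold bHLH transcription factors away from DNA, while Smad6 and Smad7 damp the pathway at the receptor. In the early embryo Bmps act in the dorsal neural tube and its emerging neural crest, in the pharyngeal arches, the heart and the limb buds.

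Sequence upstream of the genes is shown first for the ligand with the largest difference between genotypes, Bmp6, and for 3 response genes. The windows run from 250 bases before to 50 bases after the annotated start and are credited to RefSeq, build GRCm38.p6. The array design itself was annotated on mm9, so no coordinate of a probe is given. Capitals mark 3 letter strings, searched on both strands: GGCGCC, the core of the Bmp-responsive GC-rich element known from Id1, CAGAC, a Smad-binding box, and GTCTAGAC, the palindromic Smad box. The palindrome was chosen after the Smad6 window had been seen. The 3 strings do not overlap each other in these windows.
Bmp6, chr13:38345466-38345765, plus strand: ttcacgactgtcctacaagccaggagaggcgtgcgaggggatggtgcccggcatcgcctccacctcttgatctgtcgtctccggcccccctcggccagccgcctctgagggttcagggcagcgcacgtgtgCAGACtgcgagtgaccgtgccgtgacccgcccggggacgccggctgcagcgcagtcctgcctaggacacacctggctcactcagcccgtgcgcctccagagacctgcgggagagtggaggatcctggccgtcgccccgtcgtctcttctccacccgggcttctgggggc
Id2, chr12:25096043-25096342, minus strand: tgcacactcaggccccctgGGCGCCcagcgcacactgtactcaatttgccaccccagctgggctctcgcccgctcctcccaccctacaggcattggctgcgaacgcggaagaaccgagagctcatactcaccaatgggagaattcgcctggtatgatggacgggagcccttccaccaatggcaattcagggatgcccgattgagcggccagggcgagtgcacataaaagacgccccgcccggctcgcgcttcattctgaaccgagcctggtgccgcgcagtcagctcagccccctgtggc
Id3, chr4:136143572-136143871, plus strand: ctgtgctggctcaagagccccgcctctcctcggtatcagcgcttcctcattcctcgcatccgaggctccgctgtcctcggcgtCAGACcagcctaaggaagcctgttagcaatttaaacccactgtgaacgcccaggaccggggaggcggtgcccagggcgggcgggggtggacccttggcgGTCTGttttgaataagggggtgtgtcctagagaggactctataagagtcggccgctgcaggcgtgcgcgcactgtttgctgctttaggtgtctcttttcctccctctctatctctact
Smad6, chr9:64022010-64022309, minus strand: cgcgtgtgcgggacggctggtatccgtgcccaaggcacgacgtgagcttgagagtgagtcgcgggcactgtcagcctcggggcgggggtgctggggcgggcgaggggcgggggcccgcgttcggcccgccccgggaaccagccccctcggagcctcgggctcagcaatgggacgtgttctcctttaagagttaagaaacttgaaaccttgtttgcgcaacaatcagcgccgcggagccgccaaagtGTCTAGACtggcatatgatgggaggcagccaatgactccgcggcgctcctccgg

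The table held windows for 6 of the 10 genes. The Bmp6 window had 1 CAGAC, at -119 from the start, and the Id3 window had 2, at -167 and at -68. In Id2 there was 1 GGCGCC at -231, and in Smad6 1 GTCTAGAC at -4. Among all 32851 windows, CAGAC was present in 49.6%, GGCGCC in 11.9% and GTCTAGAC in 0.213%, so a CAGAC is found in about as many windows as not. The Bmp5 window had 1 CAGAC at -134 and the Bmp4 window had none of the strings. These matches are letters in a window, with no measurement of binding here.

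The signal of a gene is given throughout as the log2 of its processed signal over the 75th percentile of its array, so that 0 is a spot as bright as that percentile. A level of one probe cannot be set against that of another. Of each gene the probe with the highest mean was used. The 75th percentile ranged from 1095 to 1721 over the arrays, and the share of probes well above background from 69.3% to 75.7%. The 10 probes used were well above background on all 12 arrays. The other Bmp4 probe stayed below that mark on all 12 arrays, so its differences between genotypes are not read. Chd7 itself matched no probe by accession and is not analysed here, so its signal could not serve to check the genotype labels. Markers of neural tube, heart, blood, endothelium and surface ectoderm on the array were all well above background in every embryo. The exception in level was heterozygous replicate 1, where 13 heart muscle markers summed to 12.1 times the array's 75th percentile, against 172 to 239 on the other heterozygous arrays and 169 to 246 in wild type. The 3 slides held all 3 genotypes, but position 1 of a slide held wild-type arrays alone.

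In homozygous embryos none of the 10 genes passed the threshold against wild type, Bmp6 coming closest with higher values in all 4 embryos. With limma and Benjamini-Hochberg adjustment over all 22582 genes, 0 of 10 had an adjusted p under 0.05, where 1.35% of all genes did (0.487% higher and 0.864% lower). At an unadjusted p under 0.05 there was 1 of 10 (17% of all genes), and the arrays did not overlap for 1 of 10 (14.1% of all genes, 5.86% higher and 8.22% lower), Bmp6 in each case. The median log2 fold change was 0.06 over the 10 genes and 0.02 over all genes tested. Values were higher for 6 genes and lower for 4. The differences ranged from -0.27 for Smad7 to 0.88 for Bmp6.

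**Figure D1:**
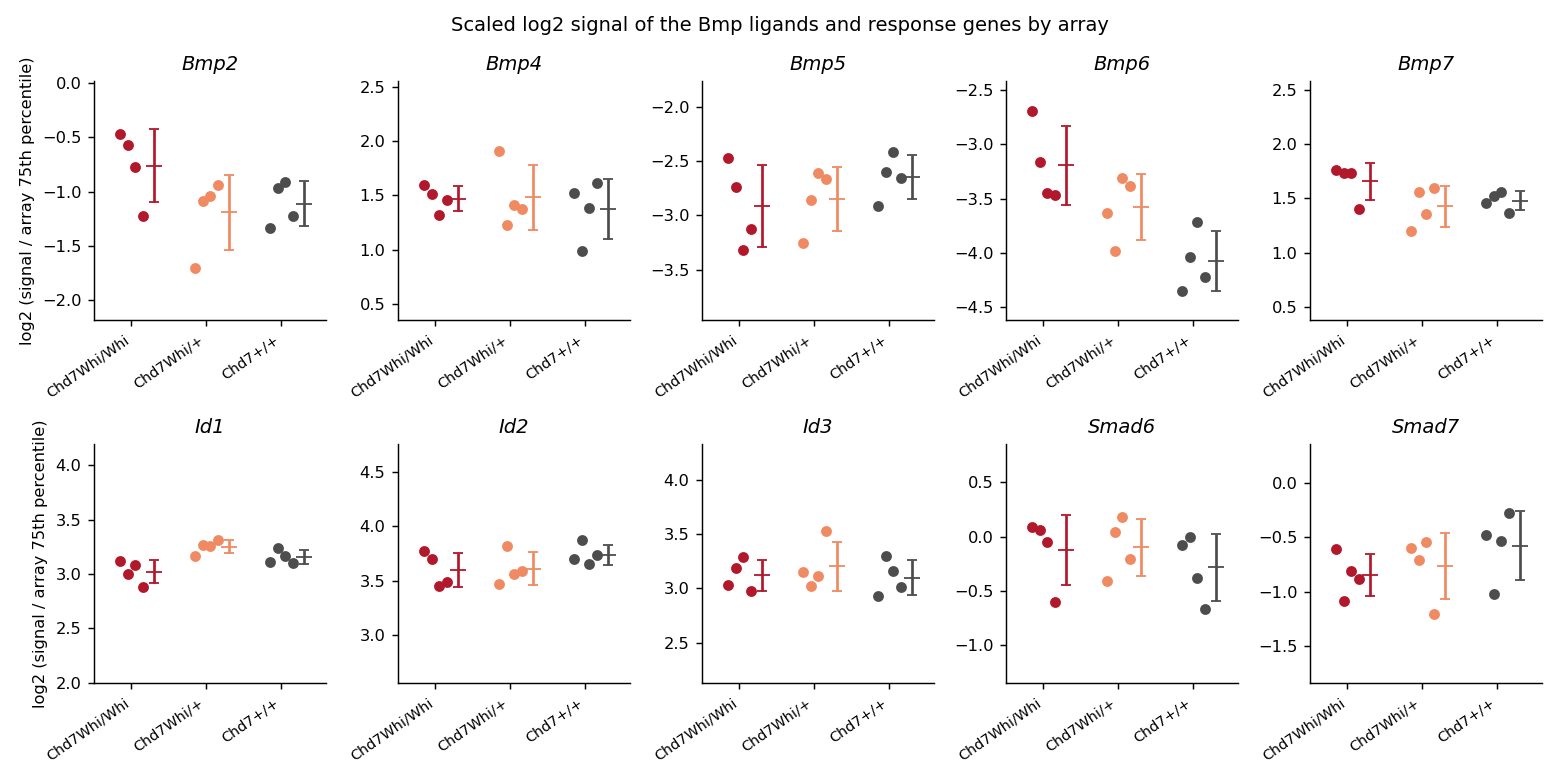
Scaled log2 signal (log2 of signal over the array's 75th percentile) of the 10 genes, each panel spanning the same log2 range. Points are the 4 embryos of a genotype in replicate order, and the line with a bar is their mean ± SD. Homozygous and wild-type embryos are apart for Bmp6 only.

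Bmp6, a ligand best known for roles in bone and in iron control, had scaled log2 signals of -2.69, -3.16, -3.45 and -3.47 in homozygous embryos, of -3.64, -3.98, -3.31 and -3.38 in heterozygous embryos, and of -4.35, -4.03, -3.71 and -4.22 in wild type. Every homozygous embryo lay above every wild-type embryo, and the heterozygotes overlapped both. The means were -3.19 ± 0.36, -3.58 ± 0.30 and -4.08 ± 0.28 (SD, n = 4 each). The log2 fold change of homozygous over wild type was 0.88 ± 0.21 (SE), a 1.85-fold higher signal with a 95% interval of 0.43 to 1.34 on the log2 scale, and limma's adjusted p was 0.0656. The exact two-sided permutation test over the 8 embryos gave p = 0.0286, the smallest that 4 against 4 allow. Heterozygous over wild type was 0.50 ± 0.21 (adjusted p = 0.291), and homozygous over heterozygous was 0.38 ± 0.21 (adjusted p = 0.872). With normexp background correction the homozygous difference was 0.37 (adjusted p = 0.628). Without heterozygous replicate 2, which is in neither mean of this comparison, the adjusted p was 0.048. The shared spread, the filter and the adjustment over all genes were then computed without that array.

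The Bmp6 difference was present on each slide but not of one size. Within slides 1, 2 and 3 homozygous minus wild type was 1.66, 0.71 and 0.76, and heterozygous minus wild type was 0.54, 0.56 and 0.83. With array position as a block the difference was 0.64. It rests on wild-type replicate 3 alone, as the other wild-type arrays were at position 1, which held no mutant. With the number in the sample title as a fixed replicate block the difference was 0.72 (adjusted p = 0.391). Homozygous replicates 1 and 4 do not enter there, as no other array has their title number. The probe was dim, with a signal of 0.0903 to 0.155 times the 75th percentile in homozygous embryos and 0.0491 to 0.0763 times in wild type.

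Markers of tissue makeup and state are set beside Bmp6 here, and no association with it was computed. The 11 yolk sac endoderm markers on the array summed to 78.1, 37.0, 4.4 and 8.9 times the 75th percentile in homozygous replicates 1 to 4, and to 6.23 to 33.3 in wild type. The 8 surface ectoderm markers summed to 30.4 to 56.6 in homozygous and 23.0 to 34.9 in wild-type embryos, highest on homozygous replicates 1 and 2. The Bmp6 values of homozygous replicates 3 and 4 were -3.45 and -3.47, and the highest wild-type value was -3.71. The 14 hypoxia and glycolysis markers summed to 572 to 694 in homozygous, 499 to 892 in heterozygous and 465 to 550 in wild-type embryos, the homozygous and wild-type ranges not overlapping. Heterozygous replicate 4 stood apart with the sum of 892, and its Bmp6 value was -3.38. The part of these 3 marker lists in the Bmp6 difference was not tested. In whole embryos, fewer cells of a type and less RNA per cell cannot be told apart.

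**Figure D2:**
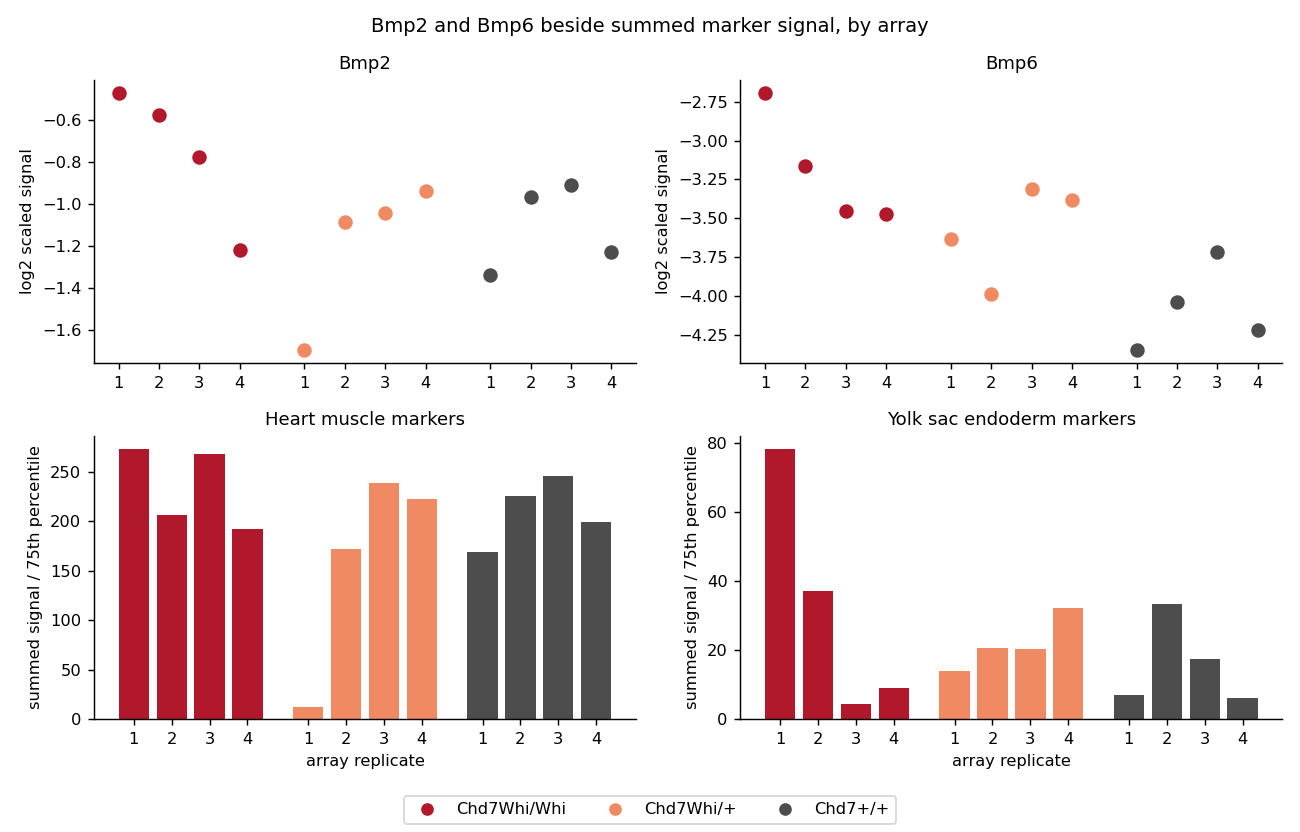
Scaled log2 signal of Bmp2 and Bmp6 (upper panels) and summed signal of heart muscle and yolk sac endoderm markers in multiples of the array's 75th percentile (lower panels), per array and in replicate order within a genotype. Heterozygous replicate 1 has the lowest heart sum (12.1) and the lowest Bmp2 (-1.70). Homozygous replicate 1 has the highest yolk sac endoderm sum (78.1) and the highest Bmp6 (-2.69). Homozygous replicates 3 and 4 have yolk sac sums of 4.4 and 8.9 with Bmp6 of -3.45 and -3.47. Wild-type replicate 2 has a sum of 33.3 with Bmp6 of -4.03. No association was computed.

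Over the 12 arrays, the named genes whose scaled signal was most like that of Bmp6 were Clec4a1 (Pearson r = 0.963), Tfeb (0.960) and Sult5a1 (0.955). These values describe likeness, over arrays that share the genotype difference, in a search through all named genes tested.

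Bmp2, a ligand of heart and neural crest development, was higher in value on most homozygous arrays. It had -0.47, -0.58, -0.78 and -1.22 in homozygous embryos, -1.70, -1.09, -1.04 and -0.94 in heterozygous embryos, and -1.34, -0.97, -0.91 and -1.23 in wild type. Homozygous replicate 4 lay among the wild-type values, and the other 3 lay above all of them. The difference was 0.35 ± 0.20 (adjusted p = 0.389, 95% interval -0.08 to 0.78), and it was 0.50 without homozygous replicate 4. The lowest of the 12 values was that of heterozygous replicate 1, the embryo with the low heart markers. Heterozygous minus wild type was -0.08 ± 0.20 with it and 0.09 without it, and homozygous minus heterozygous was 0.43 ± 0.20 (adjusted p = 0.827) with it and 0.26 without it. Nkx2-5 and Tbx20, heart transcription factors that respond to Bmps, were also lowest of the 12 on that array, at -1.50 and -3.91. The part of the heart signal in the Bmp2 values was not tested.

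Bmp4, a close relative of Bmp2 and a ligand of mesoderm, limb and dorsal neural tube, did not pass in any comparison. Its values were 1.59, 1.51, 1.32 and 1.45 in homozygous embryos, 1.91, 1.23, 1.41 and 1.37 in heterozygous embryos, and 1.52, 0.99, 1.38 and 1.61 in wild type. All 3 genotypes overlapped, and the highest value was on heterozygous replicate 1, the array with the lowest Bmp2. The homozygous difference was 0.09 ± 0.16 (adjusted p = 0.8, 95% interval -0.26 to 0.45).

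Bmp5 and Bmp7 belong with Bmp6 to a second subfamily of ligands. Bmp7, which acts in kidney, eye and skeleton, had 1.76, 1.73, 1.73 and 1.40 in homozygous embryos, 1.20, 1.56, 1.36 and 1.60 in heterozygous embryos, and 1.46, 1.52, 1.56 and 1.36 in wild type. Of the homozygous embryos 3 lay above all wild-type embryos and replicate 4 lay below most of them. The difference was 0.18 ± 0.12 (adjusted p = 0.454, interval -0.08 to 0.43), and 0.26 without homozygous replicate 4 (adjusted p = 0.343). Bmp5, mutated in the short ear mouse, had -2.47, -2.74, -3.31 and -3.13 in homozygous embryos, -3.26, -2.86, -2.61 and -2.67 in heterozygous embryos, and -2.91, -2.60, -2.42 and -2.65 in wild type. The homozygous values spread most, with replicates 1 and 2 inside the wild-type range and replicates 3 and 4 below it. Its difference was -0.27 ± 0.20 (adjusted p = 0.51), and within slides 1, 2 and 3 it was 0.44, -0.23 and -0.57, so the slides do not share a direction.

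The Id genes, the usual transcriptional readout of Bmp receptor activity, did not pass in any comparison. Id1 had 3.12, 3.0, 3.08 and 2.88 in homozygous embryos, 3.17, 3.27, 3.26 and 3.31 in heterozygous embryos, and 3.11, 3.24, 3.17 and 3.1 in wild type. Heterozygotes had the highest mean, 3.25 ± 0.06, against 3.02 ± 0.10 in homozygous and 3.16 ± 0.06 in wild-type embryos (SD, n = 4 each). Every homozygous embryo lay below every heterozygous one, a difference of -0.23 ± 0.08 (adjusted p = 0.708). Against wild type the homozygous difference was -0.14 ± 0.08 (adjusted p = 0.419, 95% interval -0.31 to 0.04).

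Id2, in which the GGCGCC at -231 is shown above, had 3.77, 3.70, 3.45 and 3.49 in homozygous embryos, 3.47, 3.82, 3.56 and 3.59 in heterozygous embryos, and 3.70, 3.87, 3.65 and 3.73 in wild type. Its homozygous difference was -0.14 ± 0.11 (adjusted p = 0.541, interval -0.37 to 0.10). Both mutant genotypes held values below the wild-type range and values inside it. Id3 had 3.03, 3.18, 3.29 and 2.98 in homozygous embryos, 3.15, 3.02, 3.11 and 3.53 in heterozygous embryos, and 2.93, 3.30, 3.16 and 3.01 in wild type. The genotypes overlapped throughout, apart from a high value on heterozygous replicate 4, and the homozygous difference was 0.02 ± 0.13 (interval -0.26 to 0.30). Over the 3 Id genes the 95% intervals of homozygous minus wild type lay between -0.37 and 0.30, and those of heterozygous minus wild type between -0.36 and 0.39.

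The inhibitory Smads spread more between embryos than the Id genes. Smad6, which blocks Bmp type I receptors and carries the palindrome shown above, had 0.09, 0.06, -0.05 and -0.60 in homozygous embryos, -0.41, 0.04, 0.18 and -0.21 in heterozygous embryos, and -0.08, -0.0010, -0.38 and -0.67 in wild type. In homozygous and wild-type embryos alike the lowest value was on replicate 4, and the ranges overlapped, with a difference of 0.16 ± 0.20 (adjusted p = 0.713, interval -0.27 to 0.58). Smad7, which inhibits both Bmp and TGF-beta signalling, had -0.61, -1.08, -0.81 and -0.88 in homozygous embryos, -0.60, -0.70, -0.54 and -1.20 in heterozygous embryos, and -0.48, -1.02, -0.53 and -0.27 in wild type. Wild-type replicate 2 lay among the homozygous values and the other 3 wild-type embryos lay above all homozygous ones. The difference was -0.27 ± 0.18 (adjusted p = 0.475), and -0.13, -0.31 and -0.57 within slides 1, 2 and 3.

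**Figure D3:**
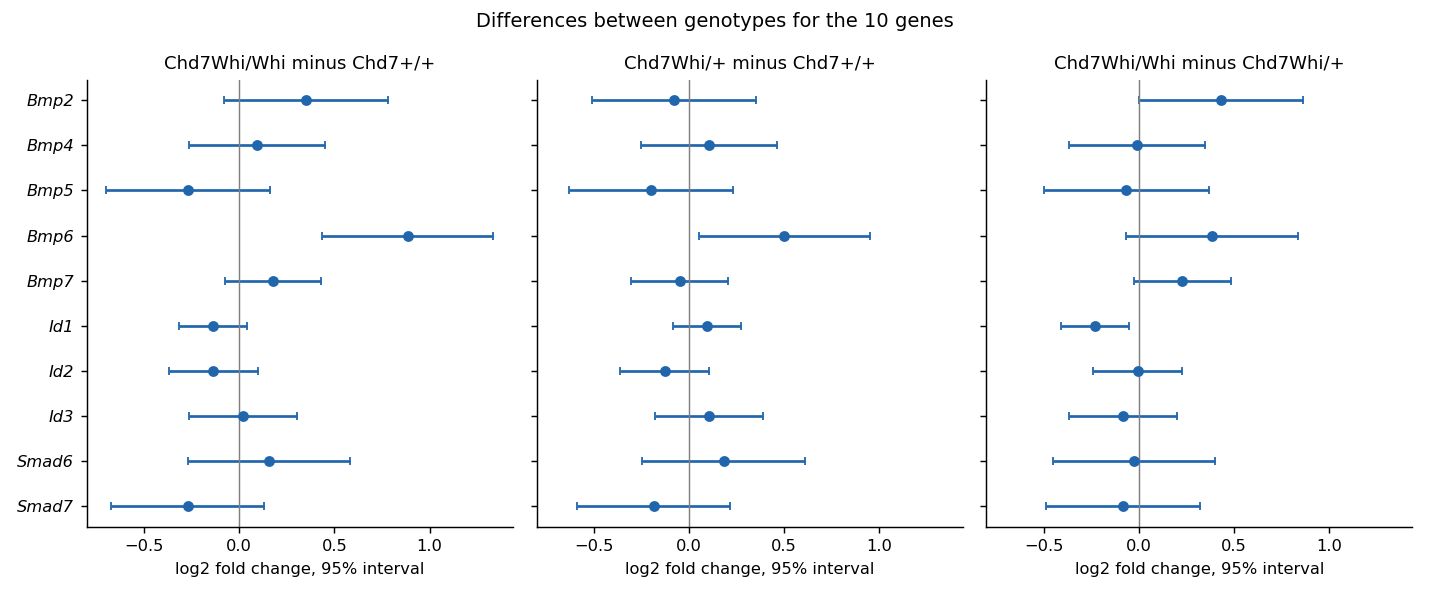
Log2 fold change of each gene with its 95% interval from the limma fit, for homozygous minus wild type, heterozygous minus wild type and homozygous minus heterozygous. The interval of Bmp6 lies above 0 in the panels against wild type and that of Id1 below 0 in homozygous minus heterozygous, and the other 27 intervals include 0. The intervals are not adjusted for the number of genes.

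Heterozygous minus wild type was largest for Bmp6, 0.50 with a 95% interval of 0.05 to 0.95. None of the 10 passed (0.00886% of all genes did), 1 had an unadjusted p under 0.05, Bmp6 (15.4% of all genes did), and no gene had arrays without overlap (6.67% of all genes did, 4.49% higher and 2.18% lower). The median was 0.02 over the 10 genes and 0.04 over all genes. Without Bmp6 the differences ran from -0.20 for Bmp5 to 0.18 for Smad6, and the 95% intervals lay between -0.63 and 0.61.

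Between homozygous and heterozygous embryos 0 of 10 passed, against 0.0133% of all genes. The arrays did not overlap for 1 gene, Id1, which was lower, against 2.99% of all genes (1.33% higher and 1.66% lower), and Id1 was also the 1 gene with an unadjusted p under 0.05 (5.99% of all genes). The median difference was -0.02 over the 10 genes and -0.03 over all genes.

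The rest of the pathway was read through 7 lists of 103 genes, 96 of them tested. In homozygous minus wild type, 0 of 96 passed, 20 had an unadjusted p under 0.05 (20.8%, against 17% of all genes), and the arrays did not overlap for 15 (15.6%, against 14.1% of all genes), 5 higher and 10 lower. The median was -0.02. Since none passed, the 2 genes with the smallest p in each list are given as values. Adjusted p-values are limma's, over all genes tested.

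When every probe was tested on its own, 1 probe of the receptors and co-receptors passed the threshold in homozygous minus wild type. In that fit 335 of all 27569 probes passed. Bmpr1b, a type I receptor of cartilage and neural tissue, has 2 probes, both well above background on all arrays. The brighter had -3.56, -3.75, -3.21 and -3.36 in homozygous embryos, -3.10, -3.11, -3.28 and -2.80 in heterozygous embryos, and -2.79, -3.33, -2.51 and -2.53 in wild type. Wild-type replicate 2 overlapped the homozygous values, and the difference was -0.68 ± 0.19 (adjusted p = 0.111). The dimmer had -4.21, -3.86, -3.88 and -3.75 in homozygous embryos, -3.51, -3.22, -3.83 and -3.46 in heterozygous embryos, and -2.98, -3.10, -3.32 and -3.04 in wild type. There all homozygous embryos lay below all wild-type ones. With every probe tested on its own, the dimmer probe fell by 0.82 ± 0.14 on the log2 scale (adjusted p = 0.0182) and the brighter did not pass (adjusted p = 0.114). In heterozygous minus wild type the probes had -0.39 and -0.28. The dimmer probe is singled out after its values were seen. Bmpr1a, the other widely used Bmp type I receptor, had -0.22 ± 0.11 (adjusted p = 0.328), and of the 13 receptors and co-receptors 6 were higher and 7 lower in value.

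Among other ligands, Gdf15, a stress-induced member of the family, had -5.72, -5.66, -5.64 and -6.02 in homozygous embryos, -6.03, -5.98, -5.72 and -6.11 in heterozygous embryos, and -6.18, -6.71, -7.51 and -6.36 in wild type. In wild type 3 of 4 arrays were well above background, so Gdf15 passed the filter through mutant embryos, where its values were higher. No difference is therefore given for it, and its values are shown alone. Gdf10 had -0.43 ± 0.23 in homozygous minus wild type (adjusted p = 0.359). Of 14 other ligands tested 5 were higher, Gdf15 among them, and 9 lower.

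Antagonists and modulators showed values in both directions, 10 of 19 higher and 9 lower. Nbl1, a secreted Bmp antagonist also called Dan, had 0.35 ± 0.12 (adjusted p = 0.187), and Sostdc1, which blocks Bmp and Wnt ligands, had -0.63 ± 0.23 (adjusted p = 0.21). Among Smads and their regulators 12 of 18 were lower, with a median of -0.12, and the arrays did not overlap for 7, all lower in homozygotes (8.22% of all genes were lower without overlap). Xiap, an adaptor in the kinase branch of Bmp signalling and an inhibitor of caspases, had 1.69, 1.51, 1.65 and 1.57 in homozygous embryos, 1.78, 1.79, 1.79 and 1.64 in heterozygous embryos, and 2.15, 1.98, 1.76 and 2.11 in wild type, a homozygous difference of -0.39 ± 0.10 (adjusted p = 0.0848). Skil, a Smad co-repressor, had -0.47 ± 0.14 on its brighter probe (adjusted p = 0.134) and 0.03 on a dimmer one. Probes of a gene also differed in sign for Smad3 (-0.20 and 0.14), Smad4 (-0.28 and 0.12) and Lemd3 (-0.13 and 0.29). Map3k7 had -0.31, -0.28 and 0.03, while both probes of Smad1 were higher (0.10 and 0.13). The counts for this list hold for the brightest probes.

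Other response genes were also divided, 11 of 21 higher and 10 lower. Hand2, a regulator of heart, arch and limb, had -0.50, -0.89, -1.23 and -1.46 in homozygous embryos, -0.80, -0.22, -0.83 and -1.04 in heterozygous embryos, and -0.19, -0.09, -0.43 and -0.25 in wild type. All homozygous embryos lay below all wild-type embryos, by 0.78 in the mean (-0.78 ± 0.21, adjusted p = 0.109). Dlx6, a patterning factor of the mandibular arch, had -0.85 ± 0.24 (adjusted p = 0.119). The 7 limb and flank mesoderm markers, a list that also holds Hand2, summed to 4.94 to 6.53 in homozygous and 7.28 to 8.38 in wild-type embryos, without overlap, and their part in these values was not tested.

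Among Nodal, activin and TGF-beta ligands 6 of 8 were higher in value. Inha, the inhibin alpha chain, had 0.61 ± 0.16 (adjusted p = 0.0927), and Tgfb2, a ligand of heart cushion and neural crest, had 0.52 ± 0.17 (adjusted p = 0.173) and 0.38 on a second probe. Of the bHLH proteins that Id proteins bind, Tcf12 had -0.54 ± 0.16 (adjusted p = 0.141, with wild-type replicate 2 missing because its spot was marked as an outlier), Tcf4 had -0.0066 and Tcf3 had -0.00014.

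**Figure D4:**
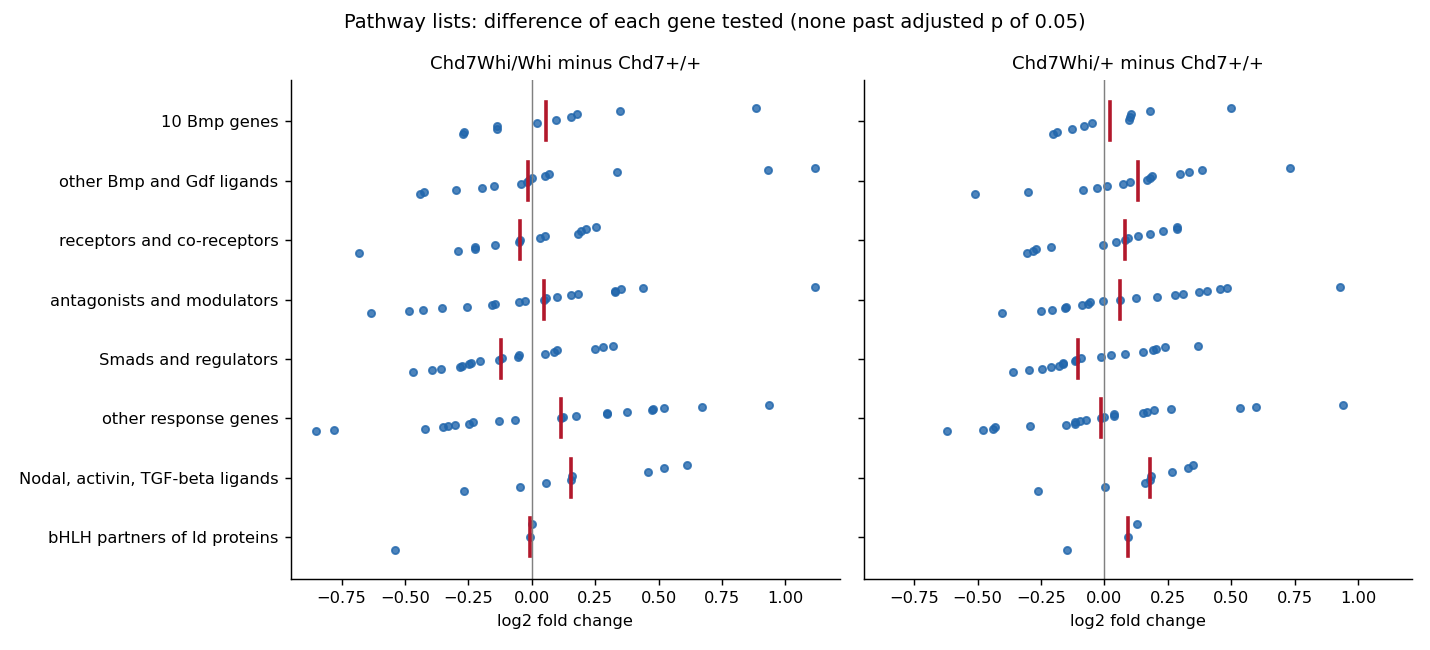
Log2 fold change of each gene tested in the 10 Bmp genes and 7 pathway lists, for homozygous minus wild type and heterozygous minus wild type, which share their wild-type arrays. Each point is 1 gene by its brightest probe, and the red line is the median of the list. Gdf15 and Runx2 are among the points, each having passed the filter through mutant embryos with higher values. In homozygous minus wild type the medians lie between -0.12 and 0.16.

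In heterozygous minus wild type 0 of 96 genes of these lists passed (0.00886% of all genes did) and the median was 0.04. An unadjusted p under 0.05 was found for 8 (8.33%, against 15.4% of all genes). The smallest p of a list belonged to Gdf15, Bmpr1a (-0.27), Chrd, a Bmp antagonist (0.37), Zeb2, a Smad-binding repressor (-0.36), Runx2, a factor of bone, Nodal (0.27) and Tcf3 (0.13), each with an adjusted p of 0.239 or more. Runx2 was well above background on 2 homozygous, 4 heterozygous and 1 wild-type array. It passed the filter through the heterozygotes, and Gdf15 through mutant embryos, so no difference is given for either. Both count among the 8. The second smallest belonged to Gdf11 (0.33), Rgma (0.29), Crim1 (0.93), Xiap (-0.25), Hand2 (-0.48), Tgfb1 (0.35) and Tcf12 (-0.15). Several of these differences moved when 1 array was left out. Crim1 fell to 0.46 without heterozygous replicate 4, and Rgma rose to 0.43 without heterozygous replicate 2. Tgfb1 was 0.22 without heterozygous replicate 4 and 0.21 without wild-type replicate 4. With 1 array left out, Tcf3 ranged from 0.04 to 0.21 and Tcf12 from -0.27 to -0.03.

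In homozygous minus heterozygous 0 of 96 passed (0.0133% of all genes did) and the median was -0.08. An unadjusted p under 0.05 was found for 5 (5.21%, against 5.99% of all genes). The 2 smallest p-values of each list belonged to Gdf10 (-0.44) and Gdf11 (-0.28), Bmpr1b (-0.40) and Acvrl1 (-0.33), Bmper (0.34) and Chrd (-0.32), Smad9 (-0.44) and Xiap (-0.15), Runx2 and Id4 (0.35), Inha (0.44) and Nodal (-0.31), and Tcf12 (-0.39) and Tcf3 (-0.13). Each value is a log2 fold change, and the adjusted p-values were 0.653 or more. Runx2, which passed the filter through the heterozygotes, counts among the 5, and no difference is given for it. Gdf10 was -0.21 without heterozygous replicate 4, Smad9 -0.16 without heterozygous replicate 3, and Acvrl1 -0.17 and Nodal -0.21 without homozygous replicate 4. With 1 array left out, Tcf3 ranged from -0.21 to -0.04.

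How far the Bmp6 value rests on single arrays and on the processing is shown by the refits. Leaving out each array in turn gave differences between 0.72 (without homozygous replicate 1) and 1.01 (without wild-type replicate 3). The sign was positive in all 27 refits, but many of them could not move this value. The value table held the same intensities, Bmp6 has 1 probe, and changes of filter, variance or heterozygous arrays leave both means as they are.

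**Figure D5:**
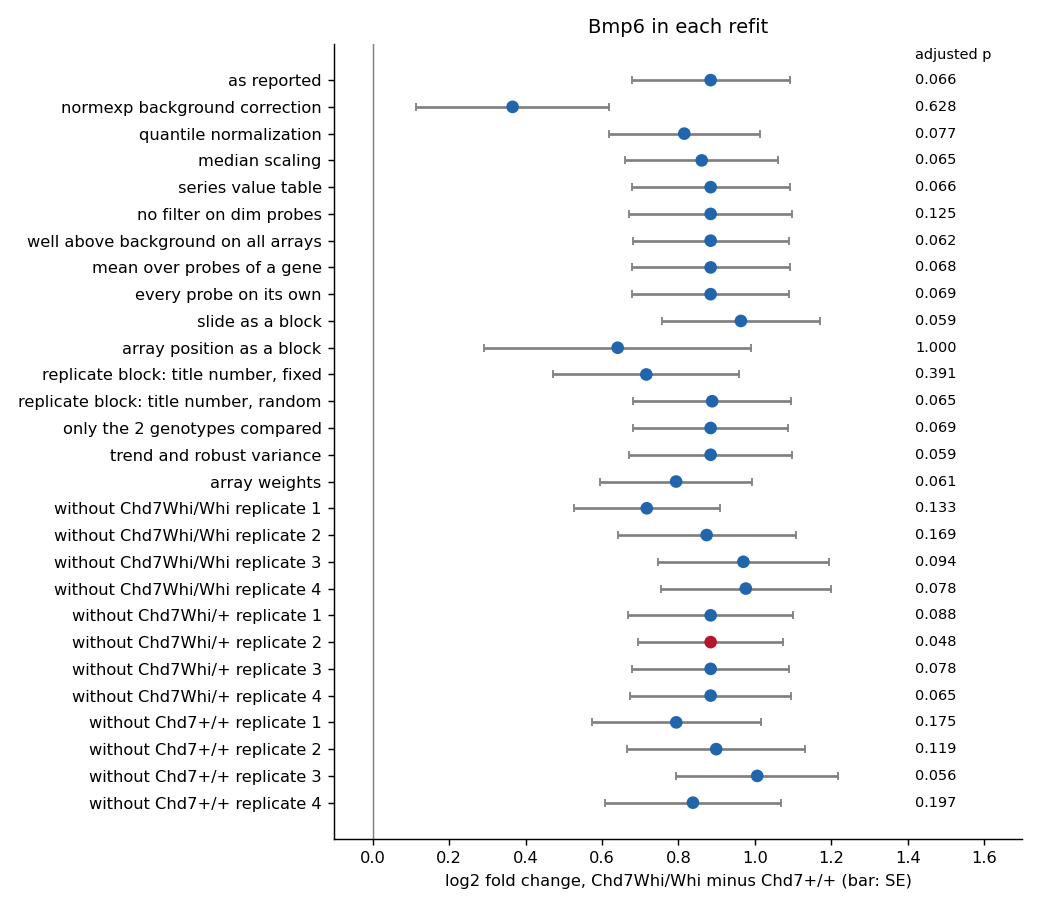
Log2 fold change of Bmp6 in homozygous over wild-type embryos as reported and in 27 refits (point, bar: SE), with the adjusted p at the right. The value is lowest with normexp background correction (0.37), and the adjusted p is under 0.05 (red point) without heterozygous replicate 2 alone. With array position as a block the value rests on wild-type replicate 3 alone, and its adjusted p is not read.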

How the data were processed

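Total RNA of 12 embryos was hybridised to 12 one-colour (Cy3) Agilent arrays. The deposited scanner output holds a processed intensity per spot, background-corrected within each array by Agilent Feature Extraction 10.7.3.1 per the file headers. The submitters' processing notes name that program and limma. The deposited value table held the same intensity values (largest relative difference 0) and is linear and not centred.

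Control spots (1377) and outlier spots were left out, 171 to 386 of the latter per array, and no spot was saturated. From the intensities, log2 of the signal minus the array's 75th percentile was computed and spots of a probe were averaged. Of 39429 probes, 26055 were named by accession in a RefSeq table of assembly GRCm38.p6. The brightest probe of a gene was tested if all arrays of 1 genotype or more had it well above background. One mean per genotype was fitted over all 12 arrays with limma 3.58.1 (lmFit, eBayes) in R 4.3.3, with Benjamini-Hochberg adjustment over 22582 genes and a threshold of 0.05. The fit was tested on simulated data.

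The 10 genes and the lists were chosen with earlier results of these data known. All 10 genes are named, with any list member past the threshold or else the 2 with the smallest p, and the 3 genes most like the one with the smallest p. Replicates are numbered in accession order. Equal title numbers did not mark arrays that deviate together (correlations of -0.32 to 0.29 over 11 pairs of different genotype). Slide and scan coincide. Alternatives were background correction, scaling, the value table, filters, the probe of a gene, slide, position or title number as a block, the samples fitted, array weights, a trended robust variance and each array left out in turn (for pathway genes outside the 10, chosen after seeing the data). The number of arrays limits the precision. Figures were drawn with matplotlib 3.10.9.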

Additional observations from a re-analysis of the deposited data

Results flagged for a closer look

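Over 30 groups of 4 embryos (10 genes in 3 genotypes), 1 value stood apart from its group by Dixon's test, where chance gives about 1 in 20 groups. Bmp7 in homozygous replicate 4 had a scaled log2 signal of 1.40, against 1.73 for the nearest of the other 3 homozygous embryos.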

How the results depend on the processing

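The count of Bmp genes past the threshold was 0 in all 3 comparisons under every alternative, except homozygous minus wild type without 1 array at a time, where it ranged from 0 to 1 (Bmp6, without heterozygous replicate 2). Of 810 refitted differences (30 values, 27 alternatives), 770 kept direction and side of the threshold, 39 changed sign and 1 became significant. Many of the 810 could not change in size, such as those from the value table, the filters or an array of the third genotype. Every value that changed sign was at most 0.19 from 0 in the reported fit, and the cause was not tested. Against wild type, signs changed for Bmp7 in heterozygotes with normexp (0.062) and array position (0.044), a fit where wild type rests on replicate 3 alone. Signs also changed for Smad7 in heterozygotes with array position (0.044), and for Id3 in homozygotes with median scaling (-0.0028). In homozygous minus heterozygous they changed for Id2 with normexp (0.046), quantile normalization (0.025), median scaling (0.040), slide as a block (0.025) and array weights (0.0068), for Bmp4 with median scaling (0.037), slide (0.021), position (0.0034) and the replicate block of title number (0.049), for Smad6 with median scaling (0.021), slide (0.050) and the replicate block (0.064), and for Id3 with the replicate block (0.0041). With 1 array left out, ranges that crossed 0 in homozygous minus wild type were -0.034 to 0.17 for Bmp4 and -0.037 to 0.087 for Id3. In heterozygous minus wild type they were -0.17 to 0.088 for Bmp2, -0.038 to 0.19 for Bmp4, -0.11 to 0.027 for Bmp7 and -0.0061 to 0.17 for Id3. In homozygous minus heterozygous they were -0.094 to 0.13 for Bmp4, -0.21 to 0.067 for Bmp5, -0.064 to 0.063 for Id2, -0.14 to 0.027 for Id3 and -0.13 to 0.13 for Smad6. The replicate block of title number, fitted as a fixed and as a random term, changed no call among the Bmp genes. Over all genes, homozygous minus wild type gave 305 calls, against 90 with normexp and 188 without a filter. There were 531 with array weights and 451 with 2 genotypes fitted. The replicate block gave 19 as a fixed term, which sets aside homozygous replicates 1 and 4, and 295 as a random term. No count is given with position, where wild type rests on replicate 3 alone. With 1 array left out, the calls of homozygous minus wild type ranged from 112 (without wild-type replicate 1) to 443 (without heterozygous replicate 4). They were 149, 136 and 140 without homozygous replicates 1, 2 and 3 and 115 without wild-type replicate 4. The other comparisons gave 2 and 3, ranging from 0 to 5 and from 0 to 8. Normexp adds an offset of 50 before the log2, which shrinks the fold changes of dim probes.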
